A study of Mus musculus with 7 samples.

Results

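The 49 genes described here encode the machinery of DNA replication and S phase, and were chosen by their symbols from a fixed list. All 49 had a row among the 21615 genes of the raw count table, and all 49 passed the filter on low counts, which kept 16653 genes. They were compared between CD48-/lo and CD48hi megakaryocyte progenitors (MkPs), bone marrow cells that mainly give rise to the megakaryocytes that shed platelets. Both subsets came from marrow of wild-type C57BL/6 mice, for which no treatment is given. They shared a sort for cells without lineage markers or Sca-1 and with CD117, CD150 and CD41, and differed in the gate on surface CD48, a receptor of the SLAM family. There were 3 CD48-/lo libraries (replicates 1, 3 and 4) and 4 CD48hi libraries (replicates 1, 3, 4 and 5), each from a bulk of sorted cells. The labels give no animal age and do not tie libraries to separate mice, so the p-values measure the spread between these libraries, which may be technical. The study places the subsets on different paths of platelet formation, and the comparison asks how their replication transcripts differ.

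Before S phase, origin recognition proteins, CDC6 and CDT1 load the ring-shaped MCM2-7 helicase onto DNA, a step called licensing. CDC45 and the GINS complex then switch the helicase on, primase and the polymerases alpha, delta and epsilon copy the strands, and the sliding clamp PCNA holds the polymerases in place. Geminin blocks CDT1 so that an origin is not licensed again, and many of these genes are transcribed as cells enter S phase through E2F transcription factors. Megakaryocytes are unusual in that they later replicate their DNA repeatedly without dividing, whereas MkPs still divide.

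Total counts were between 48899037 and 51161449 in the CD48-/lo libraries and between 51537445 and 69324909 in the CD48hi libraries. The CD48-/lo libraries came from 5348 to 6497 sorted cells and the CD48hi libraries from 14033 to 20826. The replication genes had from 590789 to 706881 counts in CD48-/lo libraries and from 631531 to 897595 in CD48hi libraries, or 1.20 to 1.38% of all counts in CD48-/lo and 1.23 to 1.39% in CD48hi libraries, which overlap. The least count of any of the 49 genes in any library was 763, so that counting error was small beside the spread between libraries. Cd48 itself was at 14.0, 4.98 and 11.4 CPM (counts of a gene per total, with each total adjusted by a TMM scaling factor) in CD48-/lo replicates 1, 3 and 4, against 15.8, 43.0, 23.6 and 33.3 CPM in CD48hi replicates 1, 3, 4 and 5, which fits the gate without overlap. The MkP gene Itga2b, which encodes CD41, a marker of the sort, was at 782 to 941 CPM in CD48-/lo libraries, against 849.5 to 1956 CPM in CD48hi libraries, so that both subsets carried it.

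E2F sites are the sequence feature that replication genes are best known for, and promoters are therefore shown for the genes with small p-values that held such a site. RefSeq windows of 250 bases before to 50 bases after the gene start (GRCm38.p6) were found for 37 of the 49 genes. They were searched on both strands for TTTGGCGC, TTTCCCGC, TTTCGCGC and TTTGCCGC, matches that may overlap each other. A match was present in 16 of the 37 genes (43.2%), beside 2.60% of the 27025 genes with a window and 4.71% of the 10291 tested genes with one. Among the 10 replication genes with the smallest p-values, 3 held a match, namely Cdt1 (chr8:122567765-122568064, + strand), Pold1 (chr7:44548766-44549065, - strand) and Mcm6 (chr1:128359656-128359955, - strand). Their windows are printed 5′ to 3′ on the strand of the gene, with the matched bases in capitals.
Cdt1: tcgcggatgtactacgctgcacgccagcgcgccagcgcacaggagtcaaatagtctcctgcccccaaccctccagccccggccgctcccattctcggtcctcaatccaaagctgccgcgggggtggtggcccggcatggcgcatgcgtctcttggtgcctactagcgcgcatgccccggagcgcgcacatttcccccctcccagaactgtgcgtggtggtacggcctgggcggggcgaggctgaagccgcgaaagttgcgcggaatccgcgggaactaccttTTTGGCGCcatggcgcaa
Pold1: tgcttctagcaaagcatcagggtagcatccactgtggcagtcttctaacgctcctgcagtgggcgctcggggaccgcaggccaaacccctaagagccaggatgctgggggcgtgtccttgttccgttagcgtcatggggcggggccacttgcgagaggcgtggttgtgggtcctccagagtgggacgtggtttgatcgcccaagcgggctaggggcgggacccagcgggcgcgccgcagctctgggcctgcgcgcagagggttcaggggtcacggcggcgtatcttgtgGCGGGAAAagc
Mcm6: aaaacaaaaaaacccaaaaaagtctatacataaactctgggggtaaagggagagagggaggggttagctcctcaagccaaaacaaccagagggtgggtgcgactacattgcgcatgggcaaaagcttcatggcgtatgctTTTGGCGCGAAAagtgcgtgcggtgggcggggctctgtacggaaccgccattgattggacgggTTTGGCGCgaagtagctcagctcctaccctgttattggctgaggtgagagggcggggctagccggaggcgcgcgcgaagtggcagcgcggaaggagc
In Cdt1 the match began at base 33 counted from the gene start as base 1, and in Pold1 at base 40. Mcm6 had 3 matches, which began 110, 106 and 47 bases before the start, and the first and second overlap. All 3 of these genes were lower in CD48-/lo than in CD48hi MkPs on average. The windows of Prim1, Pcna, Rfc4, Rrm1 and Ung, also among the 10, held no match. Gins2 and Dscc1, the rest of the 10, had no window and were not searched. Of the 16 genes with a match, 6 were above and 10 below CD48hi levels in CD48-/lo MkPs (median log2 difference -0.07), and over the 21 genes with a window but no match, 14 were higher and 7 lower (median 0.13). These counts are a description, and a match is a run of letters, not a measured binding site.

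Replication genes were split in direction between the subsets. In CD48-/lo against CD48hi MkPs, 29 of the 49 were higher and 20 lower, with a median log2 difference of 0.11, beside a median of 0.03 over all tested genes. The sign held under every alternative for 30 of the 49 genes and turned under at least 1 for the other 19. The primase subunit Prim1 (2.39-fold higher), the GINS subunit Gins2 (2.07-fold) and the clamp Pcna (1.85-fold) were at one end, and the licensing factor Cdt1 (2.26-fold lower), the helicase subunit Mcm6 (1.95-fold lower) and the polymerase delta catalytic subunit Pold1 (1.66-fold lower) at the other. None of these folds passed the test in edgeR. In this test, a quasi-likelihood F test adjusted by Benjamini-Hochberg over all genes, 0 of the 49 genes were called at an adjusted p of 0.05, beside 32 of 16653 genes (0.192%), and the smallest adjusted p was 0.149, for Prim1. At an unadjusted p under 0.05 there were 9 of 49 (18.4%), 4 higher and 5 lower, near the 17.2% of all genes. DESeq2, the tool of the study's own comparison and an alternative here, called 1 of the 49, Prim1 (adjusted p = 0.0169). It called 5.86% of the 17529 genes to which it gave an adjusted p. In bulk samples, fewer cells in S phase and less of a transcript per cell cannot be told apart.

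The spread of the estimates sets what could have been seen. The 95% interval of the log2 difference had a median distance from its centre to either end of 0.65 for the replication genes, against 0.92 for all tested genes. For 23 of the 49 genes (46.9%) the whole interval lay within 2-fold in either direction, against 19.0% of all tested genes. For the other genes a difference of 2-fold or more was not excluded by these libraries. The values of every library lay on one side of all values of the other subset for 9 genes. CD48-/lo libraries were all above for Prim1, Gins2, Pcna, Rfc4, Rrm1 and Gmnn (12.2% of the 49, beside 7.52% of all genes), and all below for Pold1, Dscc1 and Uhrf1 (6.12%, beside 7.06%).

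**Figure D1:**
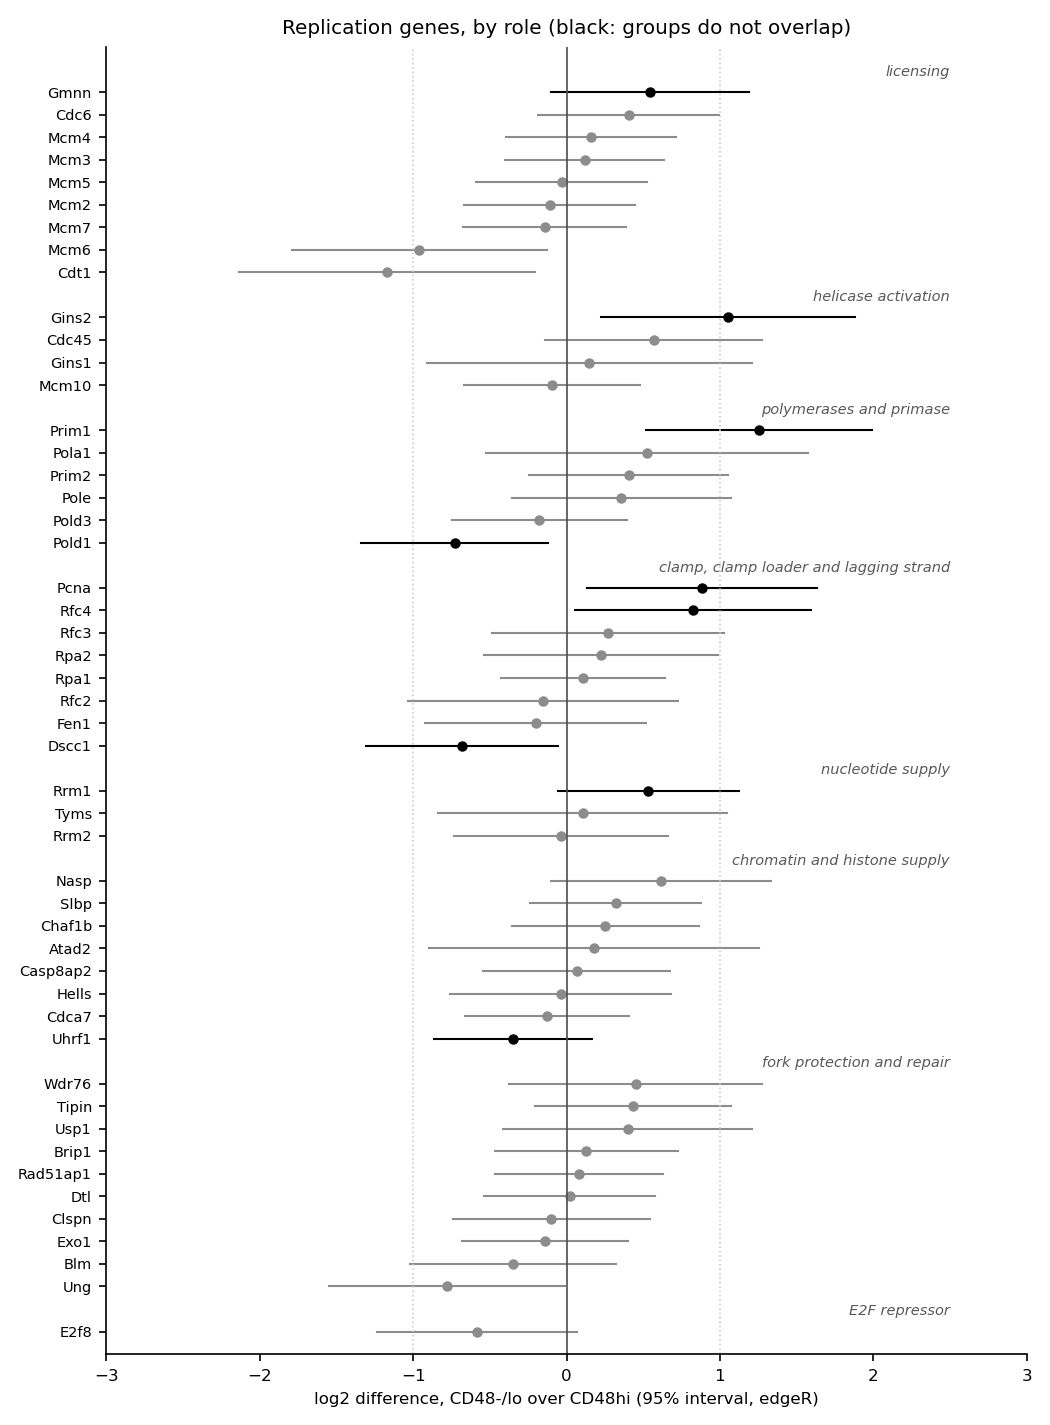
Log2 difference of each replication gene in CD48-/lo over CD48hi MkPs (horizontal axis) with its 95% interval from edgeR, grouped by role, with dotted lines at 2-fold in each direction. The differences ran from -1.17 for Cdt1 to 1.26 for Prim1, and the 9 genes in black are those whose libraries did not overlap between the subsets.

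Licensing genes included the lowest log2 difference of the 49, that of Cdt1, and a positive one for its inhibitor. Cdt1, which recruits the MCM helicase to origins (chr8:122568015-122573554), was at 74.8, 106 and 81.1 CPM in CD48-/lo replicates 1, 3 and 4, against 137, 95.7, 368 and 187 CPM in CD48hi replicates 1, 3, 4 and 5. Only CD48-/lo replicate 3 and CD48hi replicate 3 crossed, and CD48hi replicate 4 stood far above the rest. The log2 difference was -1.17 ± 0.44 (SE; adjusted p = 0.24, edgeR), and -0.68 without CD48hi replicate 4. Gmnn, which encodes geminin, the inhibitor of CDT1, was at 105, 109 and 139 CPM in CD48-/lo libraries, against 96.5, 102, 56.7 and 68.3 CPM in CD48hi libraries. The subsets did not overlap, but CD48-/lo replicate 1 was close to CD48hi replicate 3. The log2 difference was 0.54 ± 0.29 (adjusted p = 0.357, edgeR), 0.24 without CD48hi replicates 4 and 5, and 0.39 with the relation to gene length removed. The ratio of Cdt1 to Gmnn counts within each library, taken after their values were seen, was 0.713, 0.968 and 0.583 in CD48-/lo libraries, against 1.42, 0.940, 6.49 and 2.74 in CD48hi libraries. It was thus below 1 in every CD48-/lo library and in CD48hi replicate 3, and above 1 in the other CD48hi libraries. Cdc6, the loader that acts with CDT1, was at 107 to 121 CPM in CD48-/lo libraries and at 72.3 to 117 CPM in CD48hi libraries, which overlap.

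The 6 subunits of the MCM2-7 helicase assemble in equal numbers, but their transcripts were not at equal levels. Mcm6 (chr1:128331590-128359664) was at 1348, 1959 and 1404 CPM in CD48-/lo libraries, against 2640, 1596, 5201 and 2785 CPM in CD48hi replicates 1, 3, 4 and 5. CD48hi replicate 3 lay inside the range of the CD48-/lo libraries and the other CD48hi libraries above it. The log2 difference was -0.96 ± 0.38 (adjusted p = 0.249), and -0.58 without CD48hi replicate 4. The other subunits did not show this. Mcm2 was at 639, 777 and 610 CPM in CD48-/lo libraries, against 916, 604, 758 and 639 CPM in CD48hi libraries (log2 difference -0.11, 95% interval -0.67 to 0.45). Mcm3 was at 596, 619 and 610 CPM in CD48-/lo libraries, against 621, 632, 528 and 462 CPM in CD48hi libraries (0.12, -0.40 to 0.64). In both the subsets overlapped, and Mcm3 varied little among the CD48-/lo libraries. Mcm4 was at 439, 564 and 486 CPM in CD48-/lo libraries, against 352, 426, 451 and 546 CPM in CD48hi libraries (0.16, -0.39 to 0.72). Mcm5 was at 442, 565 and 457 CPM in CD48-/lo libraries, against 626, 450 and 507 CPM in CD48hi replicates 1, 3 and 4 and 412 CPM in replicate 5 (-0.03, -0.59 to 0.53). Mcm7 was at 265, 348 and 305 CPM in CD48-/lo libraries, against 376, 329 and 351 CPM in CD48hi replicates 1, 3 and 4 and 295 CPM in replicate 5 (-0.14, -0.67 to 0.39). For these 5 subunits each interval excluded a 2-fold difference. The sign of Mcm5 turned when libraries were scaled by their totals (0.04), so no direction is given for it.

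Per kilobase of gene length, Mcm6 had the highest level of the 49 genes, at a mean of 518 CPM per kilobase over the 7 libraries, against 73.2 to 155 for the other 5 subunits. It averaged 337 ± 72.3 CPM per kilobase in CD48-/lo MkPs and 655 ± 327 in CD48hi MkPs (SD, n = 3 and 4). As a share of the summed level of the 6 subunits per length, Mcm6 averaged 36.1 ± 2.56% in CD48-/lo MkPs and 50.8 ± 11.6% in CD48hi MkPs. Over the mean of the other 5 subunits it was 2.66, 3.21 and 2.64 in CD48-/lo libraries, against 4.44, 3.05, 9.58 and 5.56 in CD48hi libraries, a ratio chosen after the values were seen. Since it is a ratio within a library, it does not depend on the scaling between libraries, and CD48hi replicate 3 again lay among the CD48-/lo values. The deposited length is a single value per gene and may differ from that of the transcripts present. Such a difference would shift levels and shares compared between genes.

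**Figure D2:**
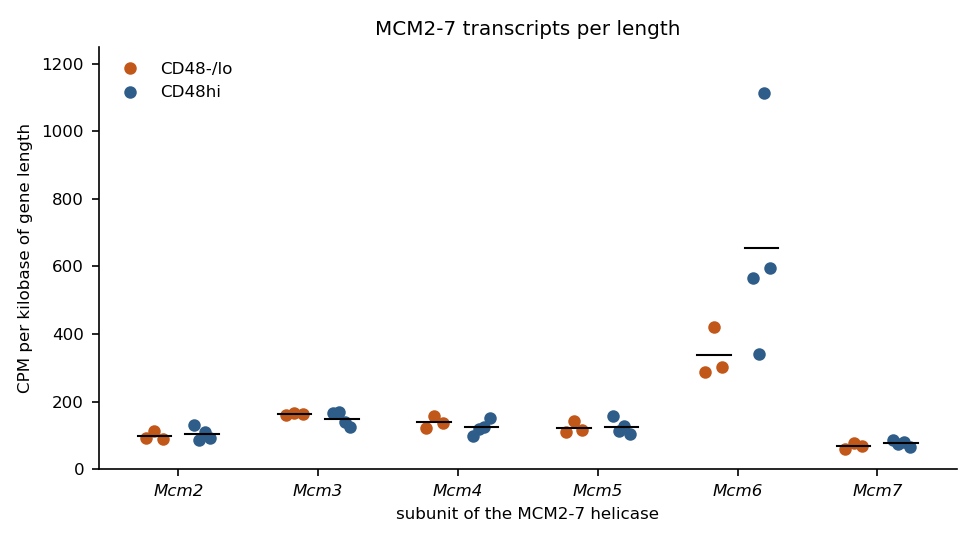
Level of each MCM2-7 subunit per kilobase of gene length (vertical axis, CPM per kilobase) in CD48-/lo (orange) and CD48hi (blue) libraries, 1 point for each library and a bar for the mean. Mcm6 averaged 337 in CD48-/lo and 655 in CD48hi MkPs, above the 73.2 to 155 of the other subunits over all libraries.

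Of the genes that activate the helicase, Gins2 was the one without overlap between the subsets. Gins2, a subunit of the GINS complex, was at 59.2, 58.1 and 66.1 CPM in CD48-/lo libraries, against 33.3, 48.5, 19.0 and 17.1 CPM in CD48hi replicates 1, 3, 4 and 5. The CD48-/lo libraries lay close together and above every CD48hi library, with a log2 difference of 1.05 ± 0.37 (adjusted p = 0.225, edgeR). Without CD48hi replicates 4 and 5 it was 0.57. Gins2 overlaps Gse1 on the other strand, and the sources do not state if reads were assigned by strand. Gins1, of the same complex, ran from 42.2 to 46.1 CPM in CD48-/lo libraries and from 16.7 to 78.8 CPM in CD48hi libraries, whose range enclosed the CD48-/lo values (log2 difference 0.15). Cdc45, the third part of the active helicase, was at 51.7 to 88.0 CPM in CD48-/lo libraries and at 32.4 to 66.9 CPM in CD48hi libraries (0.57, adjusted p = 0.376). Mcm10, which helps to start the helicase, was at 66.6 to 75.7 CPM in CD48-/lo libraries and at 57.9 to 86.2 CPM in CD48hi libraries.

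Primase and polymerase genes were at both ends. Prim1, the catalytic subunit of primase that makes the RNA primers (chr10:128015168-128030037), was at 243, 119 and 301 CPM in CD48-/lo replicates 1, 3 and 4, against 74.1, 112, 88.1 and 95.8 CPM in CD48hi replicates 1, 3, 4 and 5. The subsets did not overlap, but CD48-/lo replicate 3 was close to CD48hi replicate 3 while the other CD48-/lo libraries were far above every CD48hi library. The mean was 221 ± 92.9 CPM in CD48-/lo MkPs and 92.4 ± 15.7 CPM in CD48hi MkPs (SD), and the log2 difference 1.26 ± 0.33 (SE; adjusted p = 0.149). Prim2, the regulatory subunit, was at 99.3 to 116 CPM in CD48-/lo libraries and at 60.4 to 108 CPM in CD48hi libraries (log2 difference 0.40). The ratio of Prim1 to Prim2 counts, taken after their values were seen, was 2.44, 1.03 and 2.69 in CD48-/lo libraries, against 0.685, 1.14, 1.46 and 1.53 in CD48hi libraries. CD48-/lo replicate 3 fell inside the CD48hi range of this ratio.

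Pold1, the catalytic subunit of polymerase delta (chr7:44532746-44548849), was at 171, 221 and 177 CPM in CD48-/lo libraries, against 261, 244, 390.5 and 364 CPM in CD48hi libraries. Every CD48-/lo library was below every CD48hi library, and the log2 difference was -0.73 ± 0.28 (adjusted p = 0.24, edgeR). Pold3, an accessory subunit of the same enzyme, overlapped between the subsets, at 162 to 228 CPM in CD48-/lo and 169 to 231 CPM in CD48hi libraries. Pola1, the catalytic subunit of polymerase alpha, was at 134 to 165 CPM in CD48-/lo libraries and at 25.3 to 144 CPM in CD48hi libraries, with replicate 1 at the low end. Pole, the catalytic subunit of polymerase epsilon, was at 30.4 to 63.4 CPM in CD48-/lo libraries and at 30.8 to 49.5 CPM in CD48hi libraries. The 3 polymerases thus had log2 differences of 0.52 (Pola1), -0.73 (Pold1) and 0.36 (Pole), none of which passed the test.

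Pcna and Rfc4 were above the CD48hi libraries in all CD48-/lo libraries, and Dscc1 below them. Pcna, the sliding clamp, was at 217, 199 and 253 CPM in CD48-/lo libraries, against 117, 197, 75.6 and 93.9 CPM in CD48hi replicates 1, 3, 4 and 5. The gap between the lowest CD48-/lo library and CD48hi replicate 3 was small, and the log2 difference was 0.88 ± 0.34 (adjusted p = 0.243). A Pcna pseudogene, Pcna-ps2, is counted as its own gene, and reads that fit both copies would not be counted uniquely. Rfc4, a subunit of the loader that puts PCNA on DNA, was at 186, 208 and 230 CPM in CD48-/lo libraries, against 163, 158, 74.7 and 73.4 CPM in CD48hi libraries. The subsets did not overlap, with CD48hi replicates 4 and 5 lowest, and the log2 difference was 0.82 ± 0.35 (adjusted p = 0.269) and 0.36 without those replicates. Rfc4 overlaps Eif4a2 on the other strand. The loader subunits Rfc2 and Rfc3 had log2 differences of -0.15 and 0.27 with overlapping subsets.

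Dscc1, part of the alternative clamp loader that acts in sister chromatid cohesion, was at 35.7, 57.5 and 42.3 CPM in CD48-/lo libraries, against 86.6, 59.4, 70.6 and 72.8 CPM in CD48hi libraries. All CD48-/lo libraries were below all CD48hi libraries, with CD48-/lo replicate 3 close to CD48hi replicate 3. The log2 difference was -0.68 ± 0.28 (adjusted p = 0.264), and -0.70 without CD48hi replicates 4 and 5. Rpa1 and Rpa2, subunits of the single-strand binding protein, and Fen1, the flap nuclease that trims Okazaki fragments, had log2 differences of 0.11, 0.23 and -0.20, and each overlapped between the subsets.

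**Figure D3:**
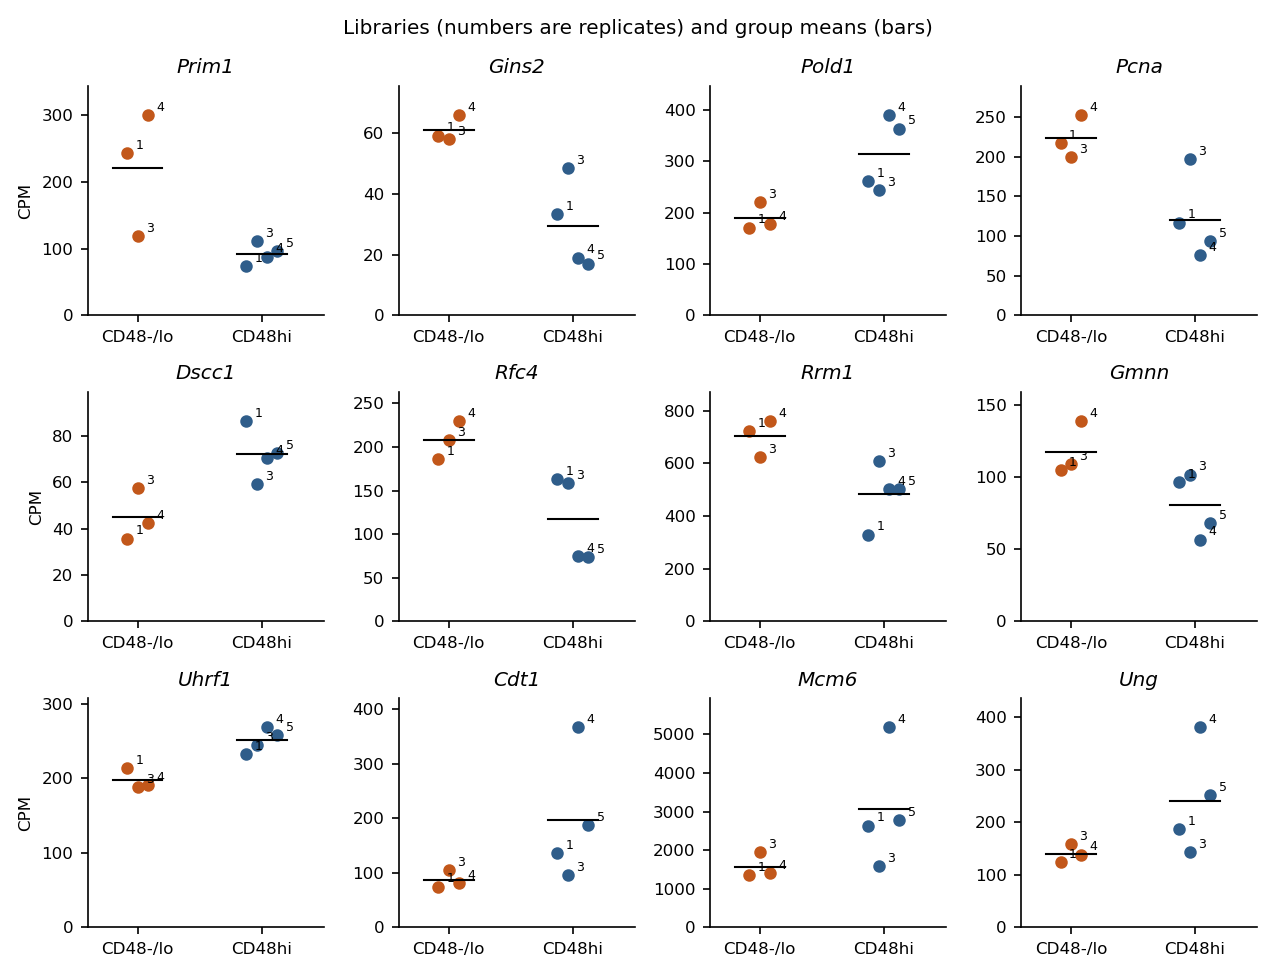
CPM in each library (points, labelled by replicate number) and group means (bars) for the 9 replication genes whose subsets did not overlap and for Cdt1, Mcm6 and Ung, with CD48-/lo left and CD48hi right in each panel. For Cdt1, CD48hi replicate 4 reached 368 CPM while replicate 3, at 95.7 CPM, lay within the CD48-/lo range of 74.8 to 106 CPM.

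Among genes of nucleotide supply, Rrm1, the large subunit of ribonucleotide reductase, was at 722, 624 and 762 CPM in CD48-/lo libraries, against 329, 607, 501 and 503 CPM in CD48hi replicates 1, 3, 4 and 5. The subsets did not overlap, and the log2 difference was 0.53 ± 0.27 (adjusted p = 0.326, edgeR). Rrm2, the small subunit, which is made mainly in S phase, was at 347 to 563 CPM in CD48-/lo libraries and at 329 to 643 CPM in CD48hi libraries (-0.04). Tyms, thymidylate synthase, was at 158 to 220 CPM in CD48-/lo libraries, inside the CD48hi range of 90.3 to 284 CPM. A Tyms pseudogene, Tyms-ps, is counted as its own gene.

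Genes of chromatin and histone supply mostly overlapped. Uhrf1, which brings DNA methylation to newly copied DNA, was at 213, 188 and 191 CPM in CD48-/lo libraries, against 233, 245, 269 and 259 CPM in CD48hi libraries. This was a small difference with little spread in either subset, -0.35 ± 0.23 on the log2 scale (adjusted p = 0.451). Nasp, a histone chaperone, had the largest positive log2 difference of this role (0.62, adjusted p = 0.348), at 69.7 to 128 CPM in CD48-/lo libraries and 42.7 to 85.4 CPM in CD48hi libraries. Slbp, which binds the stem-loop of histone mRNAs, Chaf1b, a subunit of the chromatin assembly factor CAF-1, and Casp8ap2, needed for histone gene expression, had log2 differences of 0.32, 0.25 and 0.07. The chromatin remodeller Hells, its partner Cdca7 and the bromodomain ATPase Atad2 had -0.04, -0.13 and 0.18. The range of Atad2 in CD48hi libraries, 62.9 to 311 CPM, enclosed the CD48-/lo values of 114 to 290 CPM.

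Fork protection and repair genes overlapped between the subsets throughout. Ung, the glycosylase that removes uracil from DNA, was at 125, 158 and 139 CPM in CD48-/lo libraries, against 187, 144, 382 and 252 CPM in CD48hi replicates 1, 3, 4 and 5. The only crossing was again CD48hi replicate 3, and the log2 difference was -0.78 ± 0.35 (adjusted p = 0.285), and -0.24 without CD48hi replicates 4 and 5. The other 9 genes of this role ran from -0.35 (Blm, a DNA helicase) to 0.45 (Wdr76), and the fork protection factors Tipin and Clspn, which act with the timeless protein and the checkpoint kinase CHK1, had 0.43 and -0.10. Usp1, a deubiquitinase of PCNA, and Dtl, which directs the destruction of CDT1 in S phase, had 0.40 and 0.02, and the nuclease Exo1, the helicase Brip1 and the recombination factor Rad51ap1 had -0.14, 0.13 and 0.08. E2f8, a repressor of E2F targets, was at 96.3 to 106 CPM in CD48-/lo libraries, and at 93.0 CPM in CD48hi replicate 1 but 152 to 185 CPM in the other CD48hi libraries (-0.58, adjusted p = 0.332).

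**Figure D4:**
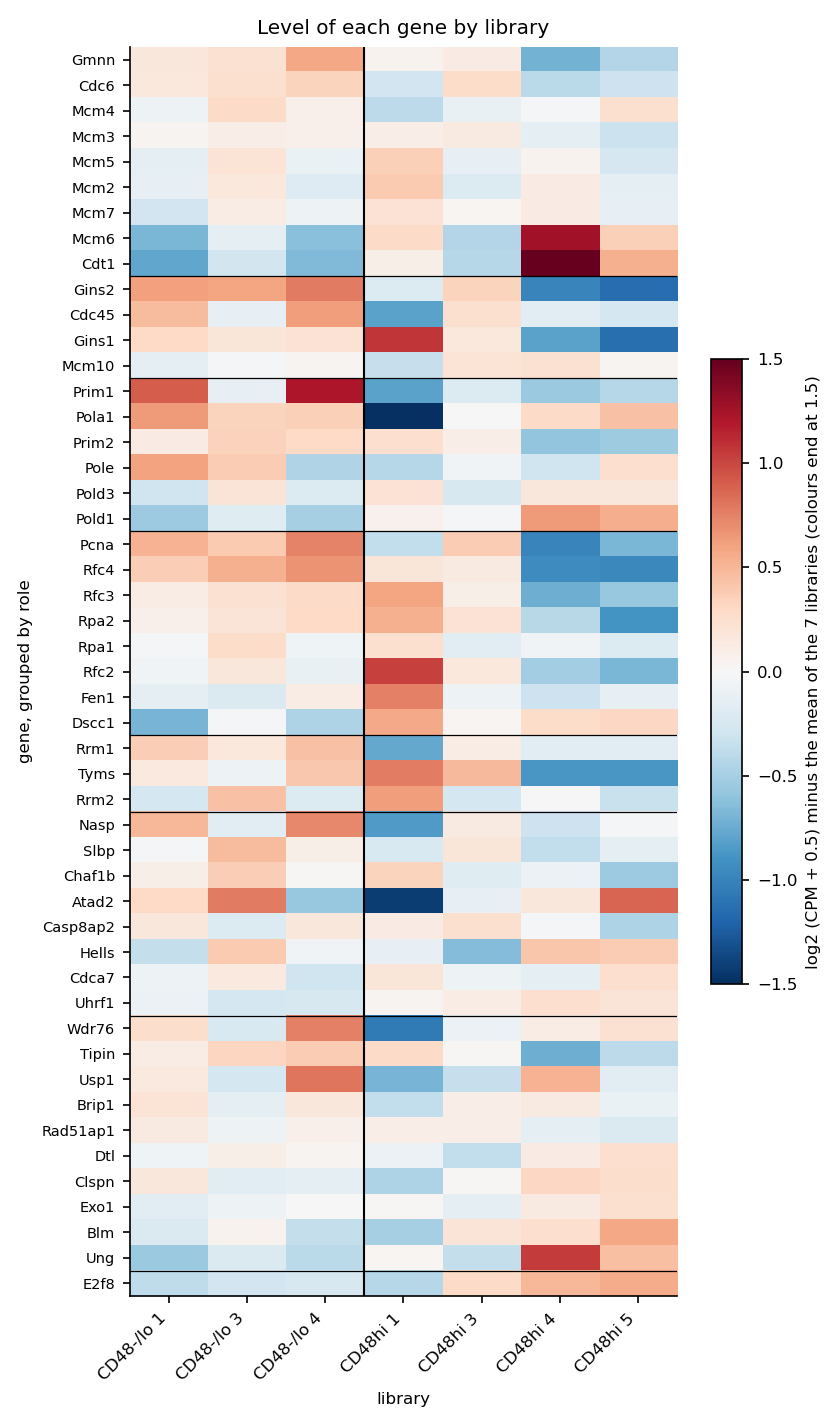
Level of each replication gene (rows, grouped by role) in each library (columns, CD48-/lo left of the line), as log2 (CPM + 0.5) minus the gene's mean over the 7 libraries. CD48hi replicates 4 and 5 resemble each other, and CD48hi replicate 1 was the highest library for 12 genes and the lowest for 14.

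Replication genes varied more among CD48hi than among CD48-/lo libraries. The ratio of the highest to the lowest library was wider in CD48hi for 43 of the 49 genes, with a median of 1.83 among the 4 CD48hi libraries, against 1.28 among the 3 CD48-/lo libraries, where 1 library fewer also narrows the range. No such count over all tested genes is given here, so the wider spread cannot be called particular to replication genes. The widest range was that of Pola1, 5.67-fold among CD48hi libraries. CD48hi replicate 1 was the highest library for 12 genes and the lowest for 14, and CD48hi replicate 3 for 2 and 3.

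Gene length moved with these differences between the CD48hi libraries. Over 10166 protein-coding genes, the Spearman correlation of a library's log2 deviation from the 7-library mean with gene length was -0.01, -0.10 and -0.05 in CD48-/lo replicates 1, 3 and 4, against -0.39, -0.13, 0.26 and 0.29 in CD48hi replicates 1, 3, 4 and 5. Over the 49 replication genes it was 0.05, -0.08 and -0.22 in CD48-/lo libraries, against -0.44, -0.06, 0.37 and 0.47 in CD48hi libraries. These correlations are across genes, which share their library and are not replicates. The 16 shortest replication genes (1465 to 3868 bases) had median deviations of 0.11, 0.18 and 0.29 in CD48-/lo libraries, against 0.14, 0.05, -0.36 and -0.36 in CD48hi libraries. The 16 longest (6303 to 16023 bases) had 0.17, 0.07 and 0.02 in CD48-/lo libraries, against -0.40, 0.01, 0.13 and 0.24 in CD48hi libraries. Of the 16 short genes, 13 were below their 7-library mean in CD48hi replicate 4 and 13 in replicate 5, but Cdt1, also short, was above it in both, and 12 of the 16 long genes were below it in CD48hi replicate 1. With the relation to length removed in each library, 0 of the 49 genes were called, and the log2 differences were 1.33 for Prim1 (adjusted p = 0.114), 0.86 for Pcna, 0.73 for Rfc4, -1.15 for Cdt1 and -0.83 for Mcm6. Without CD48hi replicates 4 and 5, 0 of the 49 genes were called, 24 were higher and 25 lower, with Prim1 at 1.24, Cdt1 at -0.42 and Mcm6 at -0.44.

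Other genes of the cell cycle were counted from lists of their own. Of 50 further replication genes, such as origin recognition, GINS and polymerase subunits, 20 were above and 30 below CD48hi MkPs in CD48-/lo MkPs, with a median log2 difference of -0.19. None were called by edgeR, 9 had an unadjusted p under 0.05 (18.0%, beside 17.2% of all genes), and DESeq2 called 2 as lower (4.0%, beside 5.86%). Rpa3, the smallest subunit of the single-strand binding protein, had 1.53 (adjusted p = 0.206, edgeR), the clamp loader subunit Rfc5 -1.05, the helicase activator Ticrr -0.80 and the checkpoint gene Atrip -0.75. Rfc4 and Rfc5, subunits of the same loader, thus had differences of opposite sign, and neither passed the test. Of 27 regulators of S phase entry, 9 were higher and 18 lower (median -0.28), 0 were called by edgeR, 5 had an unadjusted p under 0.05 (18.5%, beside 17.2%), and DESeq2 called 1 higher and 2 lower (11.1%, beside 5.86%). Ccne2, a cyclin that starts S phase, was at 146, 218 and 215 CPM in CD48-/lo libraries, against 45.1, 111, 64.2 and 96.3 CPM in CD48hi libraries (log2 difference 1.29, adjusted p = 0.15, edgeR). Ccna2, the cyclin of S and G2 phase, was at 225, 299 and 257 CPM in CD48-/lo libraries, against 532, 358, 1083 and 681 CPM in CD48hi libraries (-1.35, adjusted p = 0.162). Neither overlapped between the subsets. E2f5 and Ccnd3, the next by p-value, had -1.63 and -0.88.

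Of 53 genes of G2 and M phase, 15 were above and 38 below CD48hi MkPs in CD48-/lo MkPs, with a median log2 difference of -0.36. None were called by edgeR, 14 had an unadjusted p under 0.05 (26.4%, beside 17.2% of all genes), and DESeq2 called 1 higher and 7 lower (15.1%, beside 5.86%). For 15 of them (28.3%, beside 7.06% of all genes) every CD48-/lo library was below every CD48hi library. The centromere histone Cenpa (-1.24, adjusted p = 0.103, edgeR), the ubiquitin-conjugating enzyme of mitotic exit Ube2c (-0.98), the spindle protein Tacc3 (-1.24) and the centrosome kinase Nek2 (-1.30) had the smallest p-values. The median deviation of the 49 replication genes minus that of the G2 and M phase genes was 0.34, 0.30 and 0.18 in CD48-/lo libraries, against 0.05, -0.23, -0.19 and -0.30 in CD48hi libraries. As a difference within each library it does not depend on scaling, and it did not overlap between the subsets. The same difference for the 50 further replication genes was 0.17, 0.13 and 0.01 in CD48-/lo libraries, against -0.18, -0.29, 0.07 and 0.02 in CD48hi libraries, and did overlap. Both are given as a description, with no test.

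**Figure D5:**
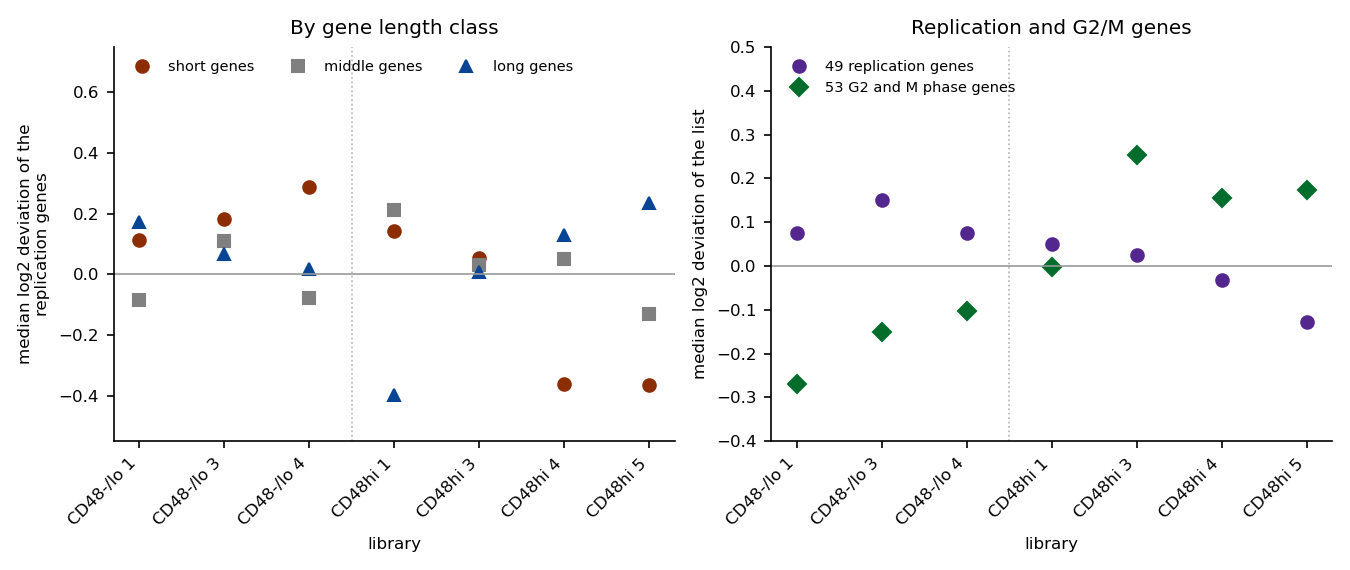
Median log2 deviation from the 7-library mean (vertical axes) by library. Left, replication genes in 3 classes of gene length, where short genes were at -0.36 in CD48hi replicates 4 and 5; right, the 49 replication genes and the 53 G2 and M phase genes, which lay below the replication genes in all 3 CD48-/lo libraries and above them in CD48hi replicates 3, 4 and 5.

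Transcripts used as markers of other lineages, and those of mitochondria, moved with the subsets. The study reports higher myeloid genes in CD48hi MkPs and an erythroid signature in CD48-/lo MkPs, as traits of the subsets. Whether such transcripts came from other cells was not tested. The summed level of 8 granulocyte and monocyte markers was 51.5 to 135 CPM in CD48-/lo libraries and 366 to 614 CPM in CD48hi libraries, with all 8 lower in CD48-/lo MkPs. The 5 tested basophil and mast cell markers, 4 of them lower, summed to 9.44 to 27.2 CPM in CD48-/lo libraries and 39.5 to 120 CPM in CD48hi libraries. The 10 erythroid markers summed to 193 to 337 CPM in CD48-/lo libraries and 153 to 256 CPM in CD48hi libraries. Klf1 and Epor, at log2 differences of -0.71 and -0.47, took most of that sum in CD48hi libraries. Klf1 overlapped between the subsets, while Epor was lower in every CD48-/lo library than in any CD48hi library. The other 8 were higher in every CD48-/lo library (80% of the 10, beside 7.52% of all genes), with log2 differences of 1.88 (Add2) to 3.76 (Hba-a1). Of these, edgeR called 3 (beside 0.192% of all genes) and DESeq2 called 8 (beside 5.86%). The lymphoid markers summed to 0.938 to 2.88 CPM in CD48-/lo libraries and 3.75 to 10.5 CPM in CD48hi libraries, and Cma1, Rag1 and Cd3e were not analysed here. The share of counts from mitochondrially encoded genes was 2.61, 0.482 and 2.91% in CD48-/lo replicates 1, 3 and 4, against 0.138 to 0.400% in CD48hi libraries (exact two-sided permutation p = 0.0571, the smallest that 35 arrangements allow; 0.0714 after adjustment over 5 library measures). CD48-/lo replicate 3, with the lowest mitochondrial share of its subset, was also the CD48-/lo library with the lowest Prim1, Pcna and Rrm1 and the highest Cdt1, Mcm6, Pold1, Dscc1 and Ung. Gins2 was lowest there too, but by a small margin (58.1 CPM, against 59.2 CPM in CD48-/lo replicate 1). The values of all these genes lay nearest to CD48hi levels, but Uhrf1 went the other way, at its lowest in this library (188 CPM). Rfc4 and Gmnn had their middle CD48-/lo value there. The part of the sorted cell number, of any cells of other types and of the mitochondrial share in the values of the replication genes was not tested.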

How the data were processed

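RNA of 3 CD48-/lo and 4 CD48hi MkP samples was primed on poly(A) tails, amplified with template switching and sequenced. Labels gave the group, replicate number and cell number of each library. The submitters' notes and the methods of the study state that reads were placed on mm10 by GSNAP with Ensembl 98 annotation, and that those aligned uniquely were assigned to genes by featureCounts 2.0.1. The deposited values used here are raw counts, not normalized, and the table lists 21615 genes, whose least sum over all libraries was 11 counts. The deposited gene length in bases was used for levels per kilobase and for the length correction. No source used here states if assignment was by strand, so genes that overlap on opposite strands cannot be told apart. Deposited normalised values, and tables of the authors' own comparison (fold changes and p-values), were not used.

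Tests used R 4.3.3 and edgeR 4.0.16. After filterByExpr (16653 genes, 99.95% of counts) and TMM scaling, CD48-/lo was set against CD48hi in a quasi-likelihood F test without covariates, and p-values were adjusted by Benjamini-Hochberg over these genes, with a threshold of 0.05. CPM values are TMM-scaled, log2 differences use a prior count of 0.125, and a log2 deviation is log2 (CPM + 0.5) minus the mean of the 7 libraries. The gene tests were first tested on simulated data. Alternatives were RLE scaling, library totals, no filter and a stricter filter (1 CPM in 3 libraries), DESeq2 1.42.0, voom with quality weights for samples (limma 3.58.1), a block for the replicate number, scaling without mitochondrial, haemoglobin and ribosomal protein genes, a prior count of 2, and leaving out each library. A length offset and leaving out CD48hi replicates 4 and 5 were chosen after seeing the data.

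The genes and lists were chosen with earlier results of these data known. Values in every library were given for the 10 replication genes with the smallest edgeR p, those whose subsets did not overlap, those called by edgeR or DESeq2, and Mcm2 to Mcm7, and in other lists up to 4 genes with the smallest p were named. Promoter windows are from RefSeq (GRCm38.p6), matched by symbol. The level of 1 marker gene is not reported here.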

Additional observations from a re-analysis of the deposited data

How the results depend on the processing

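No replication gene was called by edgeR under any scaling or filter tried, with the replicate block, or with any library left out. DESeq2 called 1 as higher (Prim1, adjusted p = 0.0169), and limma with voom called 0. Several genes lay just above the threshold with voom, with adjusted p of 0.0504 for Prim1 and for Gins2, 0.0525 for Pcna, 0.0562 for Pold1 and 0.0581 for Rfc4. Cdt1, Mcm6 and Dscc1 followed at 0.0646, 0.0674 and 0.0711. Over all genes, calls numbered 32 with the settings of the report, 57 with RLE scaling, 10 with no filter, 64 with the stricter filter, 1028 with DESeq2, 393 with voom, 58 with the length offset, 0 without CD48hi replicates 4 and 5, and from 1 to 72 when each library was left out. With the replicate number as a block there were 16 calls and 0 among the replication genes. Libraries with the same number did not deviate together (correlations of -0.18, -0.31 and -0.11), and the labels do not say what a shared number means, so the libraries were not treated as pairs. DESeq2 called 8 G2 and M phase genes, 3 regulators of S phase entry and 2 further replication genes, and voom called 6, 1 and 1. The number of replication genes without overlap was 9 in the report, 7 with library totals, 7 with scaling without mitochondrial, haemoglobin and ribosomal protein genes, 8 with the stricter filter, 15 without CD48hi replicates 4 and 5 and from 9 to 16 when 1 library was left out, where fewer values have to be kept apart. The shares over all tested genes in these settings are not given here, so these counts cannot be set against those of the full design. The median log2 difference of the 49 genes was -0.0034 without CD48hi replicates 4 and 5 and from -0.0301 to 0.144 when 1 library was left out. Of 306 values over 17 named genes and 18 alternatives, 8 turned sign, all for Mcm3, Mcm4 or Mcm5. Over all 49 genes, 19 turned sign in at least 1 alternative, most often Dtl, which kept its sign in 8 of 18. Mcm5 was at 0.0426 with library totals, 0.0329 with the length offset and from -0.288 to 0.0234 with a library left out. Mcm3 was at -0.0489 without CD48hi replicates 4 and 5 and from -0.0301 to 0.183, and Mcm4 from -0.0631 to 0.277, with a library left out. The cause was not tested.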
